A study of Mus musculus with 342 samples.

Results

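Mpeg1, Cd5l, Clec4f and C1qa were followed as markers of Kupffer cells, the resident macrophages of the liver sinusoids. Members were the probe sets whose platform annotation names exactly 1 of these symbols. Each gene had 1 such probe set, so no second probe set was at hand as a check. They are 4 of the 9093 genes of the table. RNA was measured on Affymetrix arrays in livers of male Collaborative Cross mice of 44 lines, a panel of recombinant inbred lines bred from several founder strains. In each study pair 1 mouse received a single oral gavage dose of TAK-875 at 600 mg/kg, and 1 mouse of the same line received the vehicle alone, 0.5% w/v methylcellulose in water. All mice were 8 to 10 weeks old, and livers were taken 24 h after dosing. TAK-875 (fasiglifam) is an agonist of free fatty acid receptor 1 that was developed for diabetes. The 342 arrays formed 171 study pairs, with 4 pairs in 39 lines and 3 pairs in 5 lines.

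Kupffer cells clear particles, bacteria, aged red cells and iron from the blood that passes through the liver, and they renew themselves within the organ. In mice Clec4f encodes a C-type lectin receptor that marks the surface of Kupffer cells. Cd5l encodes a secreted protein with scavenger receptor cysteine-rich domains, also called AIM, and its gene is an LXR target in macrophages. C1qa encodes the A chain of C1q, the recognition unit of the classical complement pathway, which tissue macrophages make. Mpeg1 encodes perforin-2, a pore-forming protein that macrophages turn on bacteria they have taken up.

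Promoter sequences are shown as background, and their part in how the members moved was not tested. RefSeq windows (build GRCm38.p6) were matched for 3 of the 4 members, Clec4f, Cd5l and Mpeg1, and not for C1qa. Each is 300 bases long and runs from 250 bases before to 50 bases after the transcription start. The Clec4f window lies on the minus strand at chr6:83656067-83656366, the Cd5l window on the plus strand at chr3:87357631-87357930 and the Mpeg1 window on the plus strand at chr19:12460520-12460819. Capitals mark every match, on either strand, to the PU.1 core GAGGAA, the ETS motif GGAAGT, the MAF half-site TGCTGA and the LXR half-site AGGTCA.
Clec4f: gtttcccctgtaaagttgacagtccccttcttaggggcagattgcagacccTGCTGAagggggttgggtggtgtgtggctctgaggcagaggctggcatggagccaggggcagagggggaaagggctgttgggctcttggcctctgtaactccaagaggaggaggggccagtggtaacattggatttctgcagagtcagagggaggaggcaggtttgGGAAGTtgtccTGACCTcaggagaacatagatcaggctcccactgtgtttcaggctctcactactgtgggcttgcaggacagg
Cd5l: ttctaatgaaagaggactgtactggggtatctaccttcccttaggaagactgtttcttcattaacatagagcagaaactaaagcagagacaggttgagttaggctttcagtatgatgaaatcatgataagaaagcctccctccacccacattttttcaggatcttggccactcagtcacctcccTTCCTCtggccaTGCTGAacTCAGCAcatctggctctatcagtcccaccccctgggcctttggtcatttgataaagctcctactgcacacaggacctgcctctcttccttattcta
Mpeg1: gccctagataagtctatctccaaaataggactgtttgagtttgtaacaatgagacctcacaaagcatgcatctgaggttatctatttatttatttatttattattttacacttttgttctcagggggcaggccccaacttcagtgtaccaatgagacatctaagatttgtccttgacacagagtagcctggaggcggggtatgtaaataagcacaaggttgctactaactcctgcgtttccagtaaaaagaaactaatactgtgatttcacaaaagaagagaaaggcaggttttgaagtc
The Clec4f window held 1 MAF half-site 199 bases before the start, 1 ETS motif at 33 bases and 1 LXR half-site at 22 bases. The Cd5l window held 1 PU.1 core at 66 bases and 2 MAF half-sites that face each other at 54 and 46 bases. The Mpeg1 window held no match to these letters. Of all 32851 promoter windows of this length, 28.3% held the PU.1 core, 23.8% the ETS motif, 19.5% the MAF half-site and 16.3% the LXR half-site. The facing pair, searched as TGCTGA followed after 2 bases by TCAGCA once it had been seen in Cd5l, overlaps both half-sites. It was present in 2 of the 32851 windows (0.00609%). The interferon response repeat, GAAA followed after 2 bases by GAAA and present in 3.44% of windows, and the TATA box TATAAA, present in 13.6%, had no match in the 3 windows shown. These matches describe the letters only.

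Values were deposited as log2 levels, and array medians ran between 5.40 and 6.22. Levels of different probe sets are not on a common scale and were not compared between genes. Each array correlated with the other arrays of its line and treatment at a median of 0.978. The lowest was the TAK-875 array of strain pair 4 of line CC010/GeniUnc, at 0.826, and the vehicle array of strain pair 3 of line CC015/Unc stood at 0.930. These 2 pairs carried the lowest differences of Cd5l, Clec4f and C1qa, so results that rest on them are given with and without them.

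Clec4f was at 5.39 in the lowest, 7.87 in the median and 9.24 in the highest of the 171 TAK-875 livers, against 3.70, 8.15 and 9.29 in vehicle livers. Cd5l was at 7.11, 9.59 and 10.71 in TAK-875 livers, against 8.58, 9.89 and 11.90 in vehicle livers. The groups overlapped over most of their range for both genes, with the TAK-875 median below the vehicle median. C1qa was at 5.46, 8.13 and 9.63 in TAK-875 livers, against 6.39, 8.39 and 9.51 in vehicle livers. Mpeg1 was at 5.60, 7.37 and 9.54 in TAK-875 livers, against 5.93, 7.99 and 10.17 in vehicle livers. These groups overlapped in the same way, again with the lower median in TAK-875 livers.

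The level without drug differed between lines for all 4 genes, as it did for 98% of the genes tested (moderated F test of limma over 44 lines, Benjamini-Hochberg adjusted over 9093 genes). Mpeg1 had F = 17.5 (adjusted p = 9.58e-36), C1qa F = 7.15 (4.56e-18), Cd5l F = 4.88 (3.02e-12) and Clec4f F = 4.68 (1.08e-11). Without the 2 pairs that stood apart, F was 7.56 for Cd5l and 8.37 for Clec4f. The SD between lines, freed of the spread among mice of a line, was 0.85 for Mpeg1, 0.38 for C1qa, 0.37 for Clec4f and 0.36 for Cd5l. By this SD Mpeg1 had rank 222 of the 9093 genes. Probe sequences were not used here, so a line's level is the level as its probe set reports it.

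Line means of Mpeg1 in vehicle livers spanned 3.65 log2 units, a 12.6-fold range. CC021/Unc was lowest at 6.10 ± 0.13 (SD, n = 4), followed by CC061/GeniUnc at 6.71 ± 0.31 (SD, n = 4) and CC012/GeniUnc at 6.81 ± 0.24 (SD, n = 4). The highest were CC065/Unc at 9.76 ± 0.38 (SD, n = 3), CC017/Unc at 9.75 ± 0.36 (SD, n = 4) and CC044/Unc at 9.65 ± 0.15 (SD, n = 3). Of the 43 gaps between neighbouring lines, only that of 0.61 between CC021/Unc and CC061/GeniUnc exceeded the pooled SD among mice of a line (0.41). The other gaps were smaller than this SD of single mice, which is a description and no test of whether neighbouring lines differ. The single mice of CC021/Unc were at 5.83, 6.05, 6.01 and 5.98 with TAK-875, against 5.93, 6.14, 6.10 and 6.23 with vehicle, and this line was the lowest under both treatments.

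The other members spanned less. Clec4f ran up to 9.01 in CC052/GeniUnc, 8.83 in CC024/GeniUnc and 8.68 in CC053/Unc, and down to 7.61 in CC021/Unc, 7.59 in CC042/GeniUnc and 6.66 ± 1.98 (SD, n = 4) in CC015/Unc. The CC015/Unc mean held the 1 vehicle mouse at 3.70, and the gap of 0.93 above it was the only 1 of 43 that exceeded the pooled SD. C1qa was lowest in CC006/TauUnc at 7.36, CC022/GeniUnc at 7.48 and CC042/GeniUnc at 7.62. It was highest in CC052/GeniUnc at 9.13, CC007/Unc at 9.00 and CC053/Unc at 8.92. The high ends of Clec4f and C1qa thus shared CC052/GeniUnc and CC053/Unc. Cd5l was lowest in CC006/TauUnc at 9.22, CC003/Unc at 9.23 and CC012/GeniUnc at 9.25. It was highest in CC017/Unc at 10.56, CC055/TauUnc at 10.52 and CC023/GeniUnc at 10.47. For Cd5l and C1qa no gap between neighbouring lines exceeded the pooled SD among mice of a line, again a description and no test.

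**Figure D1:**
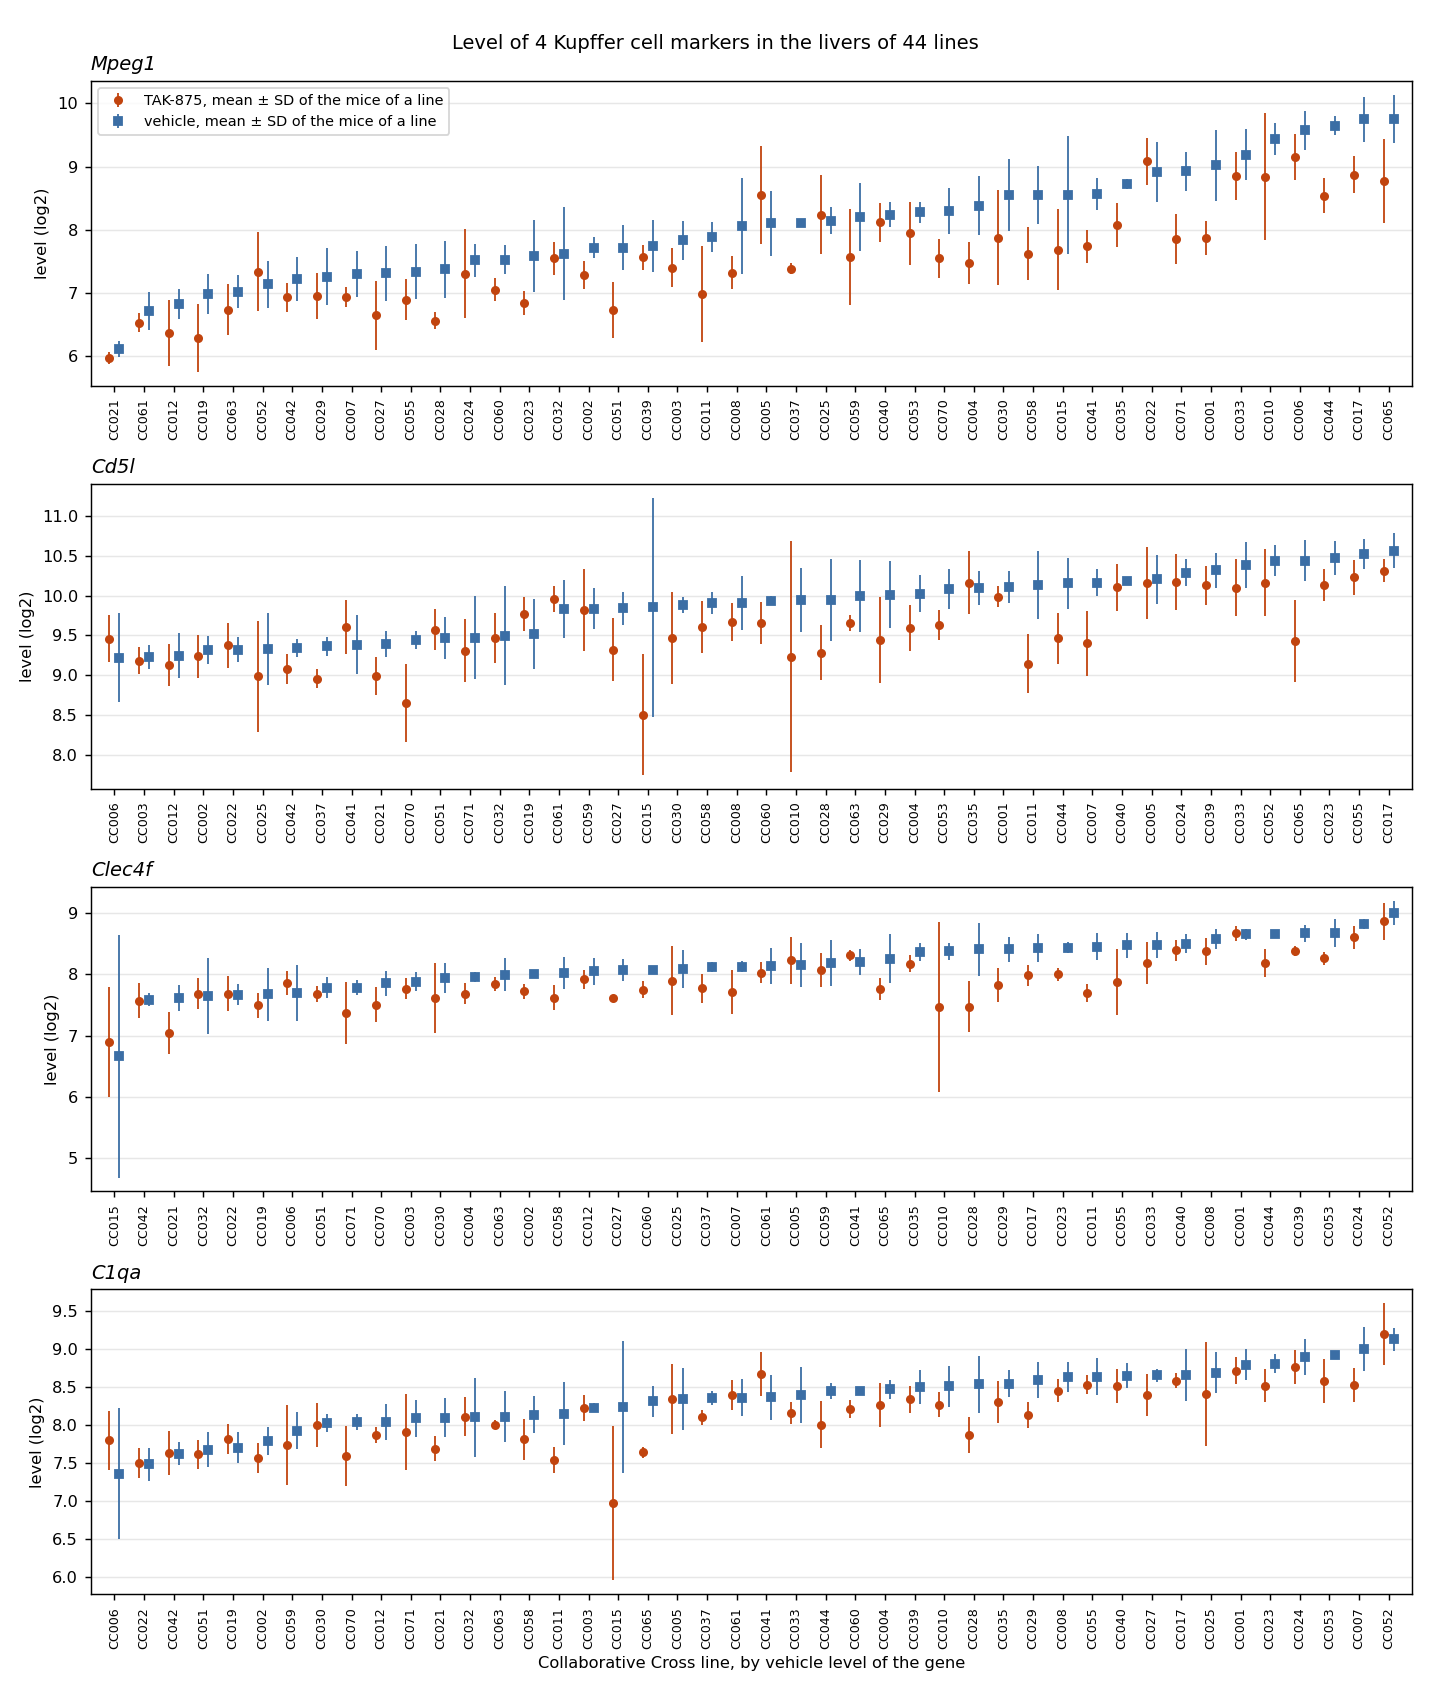
Mean log2 level ± SD over the 3 or 4 mice of a line in TAK-875 (circles) and vehicle livers (squares), 1 panel per gene, with lines ordered along the x axis by their vehicle level. Mpeg1 spans 6.10 to 9.76 in vehicle livers, and CC015/Unc carries the widest bar for Clec4f.

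Line means in TAK-875 livers followed those in vehicle livers, which came from other animals. Over 44 lines the correlation was r = 0.90 and rho = 0.90 for Mpeg1, r = 0.80 and rho = 0.76 for Clec4f, r = 0.78 and rho = 0.85 for C1qa and r = 0.67 and rho = 0.67 for Cd5l. Each r had a permutation p of 1e-05, the smallest that 100000 permutations can give, and 2e-05 after adjustment over 16 relations (1.6e-05 for each rho). Without the 2 lines farthest from the median on the vehicle axis, r was 0.89 for Mpeg1, 0.73 for Clec4f, 0.79 for C1qa and 0.68 for Cd5l.

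All 4 members fell with TAK-875 when lines were averaged with equal weight. In whole liver, fewer Kupffer cells and less RNA per cell cannot be told apart. Of the 9093 genes tested 27% were called, 11.8% as lower and 15.2% as higher. The members were chosen with earlier results of these data known, so their count of 4 of 4 is a description.

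Clec4f averaged 7.88 in TAK-875 livers and 8.15 in vehicle livers, a difference of -0.28 (SD 0.26 over 44 lines, limma adjusted p = 3.40e-07) or 1.21-fold lower. It was lower in 37 of 44 lines and in 134 of 171 pairs. Cd5l averaged 9.56 in TAK-875 livers and 9.86 in vehicle livers, a difference of -0.30 (SD 0.35 over 44 lines, limma adjusted p = 8.76e-06) or 1.23-fold lower. It was lower in 37 lines and 127 pairs.

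C1qa averaged 8.12 in TAK-875 livers and 8.33 in vehicle livers, a difference of -0.21 (SD 0.28 over 44 lines, limma adjusted p = 0.000104) or 1.16-fold lower. It was lower in 35 lines and 120 pairs. Mpeg1 averaged 7.54 in TAK-875 livers and 8.06 in vehicle livers, a difference of -0.52 (SD 0.38 over 44 lines, limma adjusted p = 1.82e-09) or 1.43-fold lower. It was lower in 40 lines and 142 pairs, and had rank 24 of 9093 genes when mean differences were ordered from the lowest. Mpeg1 had the lowest difference of the 4 members in 25 lines, Cd5l in 10, Clec4f in 7 and C1qa in 2, with no test made between probe sets. Without the 2 pairs that stood apart the mean differences were -0.27 for Clec4f, -0.26 for Cd5l, -0.19 for C1qa and -0.51 for Mpeg1, and each stayed past the threshold.

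All 4 members were lower together in 30 of 44 lines and in 87 of 171 pairs. Taken singly, 11.5% of all genes were lower in at least 30 lines. That share does not apply to 4 genes lower together, for which no background was computed. In CC022/GeniUnc no member was lower, with mean differences between 0.02 and 0.17. CC006/TauUnc and CC041/TauUnc had a lower Mpeg1 (-0.43 and -0.83) beside a higher C1qa (0.44 and 0.31), while CC005/TauUnc had a higher Mpeg1 (0.44) beside a C1qa of 0.00. These lines were named for their values, and a difference between members within them was not tested.

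**Figure D2:**
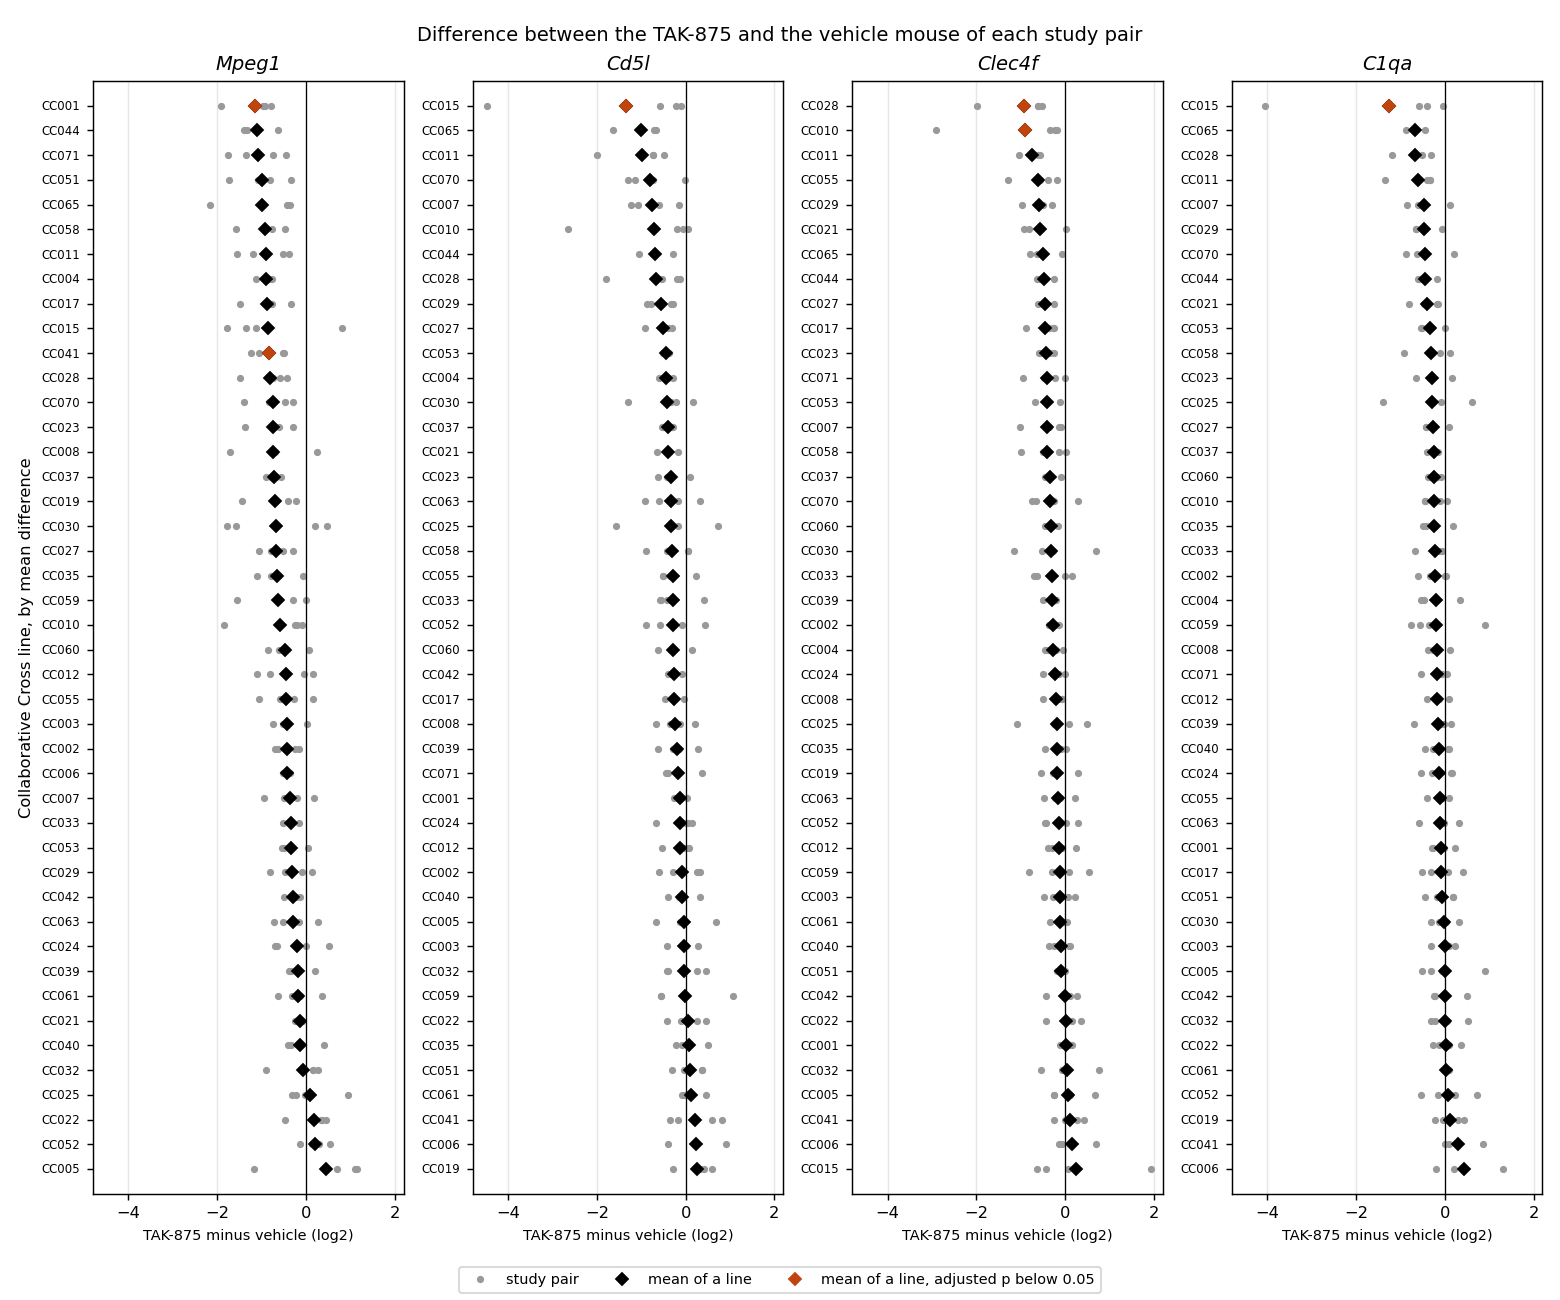
TAK-875 minus vehicle (log2) for each study pair (grey points) and each line mean (diamonds, coloured where the adjusted p within the line was below 0.05), with lines down the y axis ordered by mean difference, 1 panel per gene. Line means of Mpeg1 run between -1.15 and 0.44, and single pairs of Cd5l and C1qa in CC015/Unc lie at -4.48 and -4.05.

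A difference in response between lines was at the edge of the threshold for Mpeg1 and was not shown for the others. The moderated F test of limma gave F = 1.77 (adjusted p = 0.0502) for Mpeg1, 1.37 (0.190) for Cd5l, 1.31 (0.237) for C1qa and 1.29 (0.249) for Clec4f, where 14.8% of all genes passed. Without the 2 pairs that stood apart, Mpeg1 passed (F = 1.86, adjusted p = 0.0358) and Cd5l came near it (F = 1.72, adjusted p = 0.0563). With strain pair 4 of every line left out F for Mpeg1 was 2.55 (adjusted p = 0.0123), and with strain pair 3 left out it was 1.19 (adjusted p = 0.439). The SD of pair differences within a line was 0.55 for Mpeg1, 0.58 for Cd5l, 0.45 for Clec4f and 0.47 for C1qa. The SD between lines, freed of that spread, was 0.25, 0.18, 0.12 and 0.14 in the same order of genes, so pairs of 1 line varied more than lines did.

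The lowest line means of Mpeg1 were -1.15 in CC001/Unc, -1.11 in CC044/Unc and -1.08 in CC071/TauUnc, and the highest were 0.44 in CC005/TauUnc and 0.20 in CC052/GeniUnc. In CC001/Unc Mpeg1 was at 8.23, 7.89, 7.77 and 7.59 with TAK-875, against 9.21, 8.82, 9.68 and 8.37 with vehicle. The treatments did not overlap there (limma adjusted p = 0.0413 over the genes of this line, where 0.176% of genes were called and 0.099% as lower). In CC041/TauUnc Mpeg1 was at 7.40, 7.68, 7.84 and 8.02 with TAK-875, against 8.45, 8.93, 8.36 and 8.52 with vehicle. The treatments did not overlap there either (limma adjusted p = 0.0332, where 15.2% were called and 8.61% as lower). In CC005/TauUnc Mpeg1 was at 8.36, 9.41, 8.83 and 7.58 with TAK-875, against 7.67, 8.27, 7.72 and 8.76 with vehicle. Its pairs ran both ways there, at 0.69, 1.15, 1.11 and -1.18.

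The lowest line means of Cd5l were -1.34 in CC015/Unc, -1.01 in CC065/Unc and -0.99 in CC011/Unc, and the highest 0.26 in CC019/TauUnc and 0.24 in CC006/TauUnc. Those of Clec4f were -0.93 in CC028/GeniUnc, -0.92 in CC010/GeniUnc and -0.75 in CC011/Unc, and the highest 0.23 in CC015/Unc and 0.16 in CC006/TauUnc. The Clec4f mean of CC015/Unc owed its sign to strain pair 3 at 1.93, beside 0.07, -0.44 and -0.63 in the other pairs. C1qa was lowest in CC015/Unc at -1.27, CC065/Unc at -0.67 and CC028/GeniUnc at -0.66, and highest in CC006/TauUnc at 0.44 and CC041/TauUnc at 0.31. Within single lines, Cd5l (limma adjusted p = 0.00186) and C1qa (0.000240) passed in CC015/Unc, where 2.13% of genes were called and 1.44% as lower. Clec4f passed in CC028/GeniUnc (limma adjusted p = 0.0106, with 1.53% called and 0.891% as lower) and in CC010/GeniUnc (0.0111, with 2.47% called and 1.52% as lower). Each of these calls, and those of Mpeg1 in CC001/Unc and CC041/TauUnc, ended when the lowest pair of that line was left out. That pair was chosen by its value and 3 pairs remained, so a smaller difference was fixed in advance. The values were then -0.90 (limma adjusted p = 0.316) for Mpeg1 in CC001/Unc, -0.69 (0.164) in CC041/TauUnc, -0.30 (0.999) for Cd5l and -0.34 (0.999) for C1qa in CC015/Unc. Clec4f was then at -0.58 (limma adjusted p = 0.573) in CC028/GeniUnc and -0.25 (0.995) in CC010/GeniUnc. These p-values were adjusted over genes within a line and not over the 44 lines.

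Large falls in single pairs were most frequent for Mpeg1. Mpeg1 was lower by at least 1 log2 unit in 32 of 171 pairs, spread over 24 lines, and higher by as much in 2 pairs. Of all genes, 1.18% had as many such pairs. Cd5l had 12 such low pairs in 10 lines (11.5% of genes had as many), Clec4f 7 in 7 lines (23.7%) and C1qa 4 in 4 lines (40.9%), and each of these genes had 1 pair higher by as much. Across the members 38 pairs in 26 lines were affected. In 28 of them 1 member crossed this limit, and in 25 that was Mpeg1 alone. Another 4 pairs had 2 members past it, 5 had 3 and 1 had all 4.

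The 5 lowest pairs of Mpeg1 were in CC065/Unc (-2.17), CC001/Unc (-1.91), CC010/GeniUnc (-1.86), CC015/Unc (-1.79, strain pair 2) and CC030/GeniUnc (-1.78). Those of Cd5l were in CC015/Unc (-4.48), CC010/GeniUnc (-2.65), CC011/Unc (-2.00), CC028/GeniUnc (-1.80) and CC065/Unc (-1.63). CC010/GeniUnc, CC015/Unc and CC065/Unc gave a pair to both genes, though in CC015/Unc not the same pair. Clec4f was lowest in CC010/GeniUnc (-2.91), CC028/GeniUnc (-1.99), CC055/TauUnc (-1.28), CC030/GeniUnc (-1.16) and CC025/GeniUnc (-1.09). C1qa was lowest in CC015/Unc (-4.05), CC025/GeniUnc (-1.39), CC011/Unc (-1.34), CC028/GeniUnc (-1.18) and CC058/Unc (-0.93).

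In CC015/Unc Cd5l was at 9.17, 8.66, 7.43 and 8.79 in the TAK-875 mice of strain pairs 1 to 4, against 9.28, 9.23, 11.90 and 9.00 in their vehicle mice. C1qa was at 7.59, 7.36, 5.46 and 7.48 with TAK-875, against 7.62, 7.94, 9.51 and 7.87 with vehicle. In both genes pair 3 departed at both ends, since its TAK-875 mouse was the lowest of the line and its vehicle mouse the highest of all 171 vehicle mice. Clec4f was at 7.62, 7.45, 5.63 and 6.87 with TAK-875, against 7.56, 7.88, 3.70 and 7.50 with vehicle. Here the vehicle mouse of pair 3 was the lowest of all 171, and the difference ran upward. For these 3 genes both mice of pair 3 lay outside the range of the other mice of their treatment in the line. Mpeg1 was at 7.51, 6.86, 8.31 and 8.05 with TAK-875, against 8.86, 8.65, 9.44 and 7.25 with vehicle. For Mpeg1 the TAK-875 mouse of pair 3 was the highest of its treatment in the line, and so was its vehicle mouse.

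Other genes of that vehicle mouse, named after their values were seen, departed with it. The scavenger receptor gene Marco was at 4.50 in the TAK-875 mouse of pair 3 and 9.79 in its vehicle mouse, where the other vehicle mice lay between 4.19 and 4.81. Adgre1, which encodes F4/80, was at 3.98 with TAK-875 and 8.62 with vehicle, against 4.43 to 5.50 in the other vehicle mice. Timd4, a phagocytic receptor gene of resident macrophages, was at 2.58 with TAK-875 and 6.97 with vehicle, against 3.01 to 4.07 in the others. Of the measured genes, 22 of 25 pan-macrophage genes, 5 of 7 neutrophil genes and 11 of 15 sinusoidal endothelial genes were lower by at least 1 in this pair. The members Mpeg1 and C1qa are among the 22. Of the 15 Kupffer cell identity genes 8 were lower, Cd5l among them, and 2 higher by as much, Clec4f among them. Among all 9093 genes 933 were lower and 478 higher. The hepatocyte gene Alb was at 13.60 with TAK-875 and 13.53 with vehicle. The part of these cell types in the result was not tested.

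In CC010/GeniUnc Clec4f was at 8.00, 8.20, 8.26 and 5.39 in the TAK-875 mice of strain pairs 1 to 4, against 8.24, 8.54, 8.44 and 8.30 in their vehicle mice. Cd5l was at 9.55, 10.24, 10.04 and 7.11 with TAK-875, against 9.50, 10.44, 10.09 and 9.76 with vehicle. The TAK-875 mouse of pair 4 was the lowest of all 171 TAK-875 mice for both genes, and the rest of the line overlapped. Mpeg1 was at 9.43, 9.00, 9.54 and 7.37 with TAK-875, against 9.68, 9.21, 9.62 and 9.23 with vehicle. C1qa was at 8.19, 8.09, 8.33 and 8.46 with TAK-875, against 8.14, 8.54, 8.78 and 8.57 with vehicle. C1qa therefore did not share the low value of the other 3 members in this mouse.

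The same liver, by genes named after their values were seen, held high levels of inflammatory and neutrophil genes. Ccl2, a monocyte-attracting chemokine, was at 8.71 in the TAK-875 mouse of pair 4 and 3.33 in its vehicle mouse, and the neutrophil gene S100a9 at 9.65 and 5.02. Marco was at 9.35 with TAK-875 and 5.24 with vehicle, while Slc40a1, the iron exporter ferroportin, was at 5.06 and 10.05. Of the measured genes, 5 of 7 neutrophil genes and 7 of 11 genes of monocytes and inflammatory macrophages were higher by at least 1. Of the 25 pan-macrophage genes 6 were higher and 2 lower by as much, with the member Mpeg1 among the 2. Of the 15 Kupffer cell identity genes 4 were lower, the members Cd5l and Clec4f among them, and 4 higher by as much. Among all genes 1262 were lower and 1251 higher by at least 1 in this pair, and the part of inflammation in the result was not tested.

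**Figure D3:**
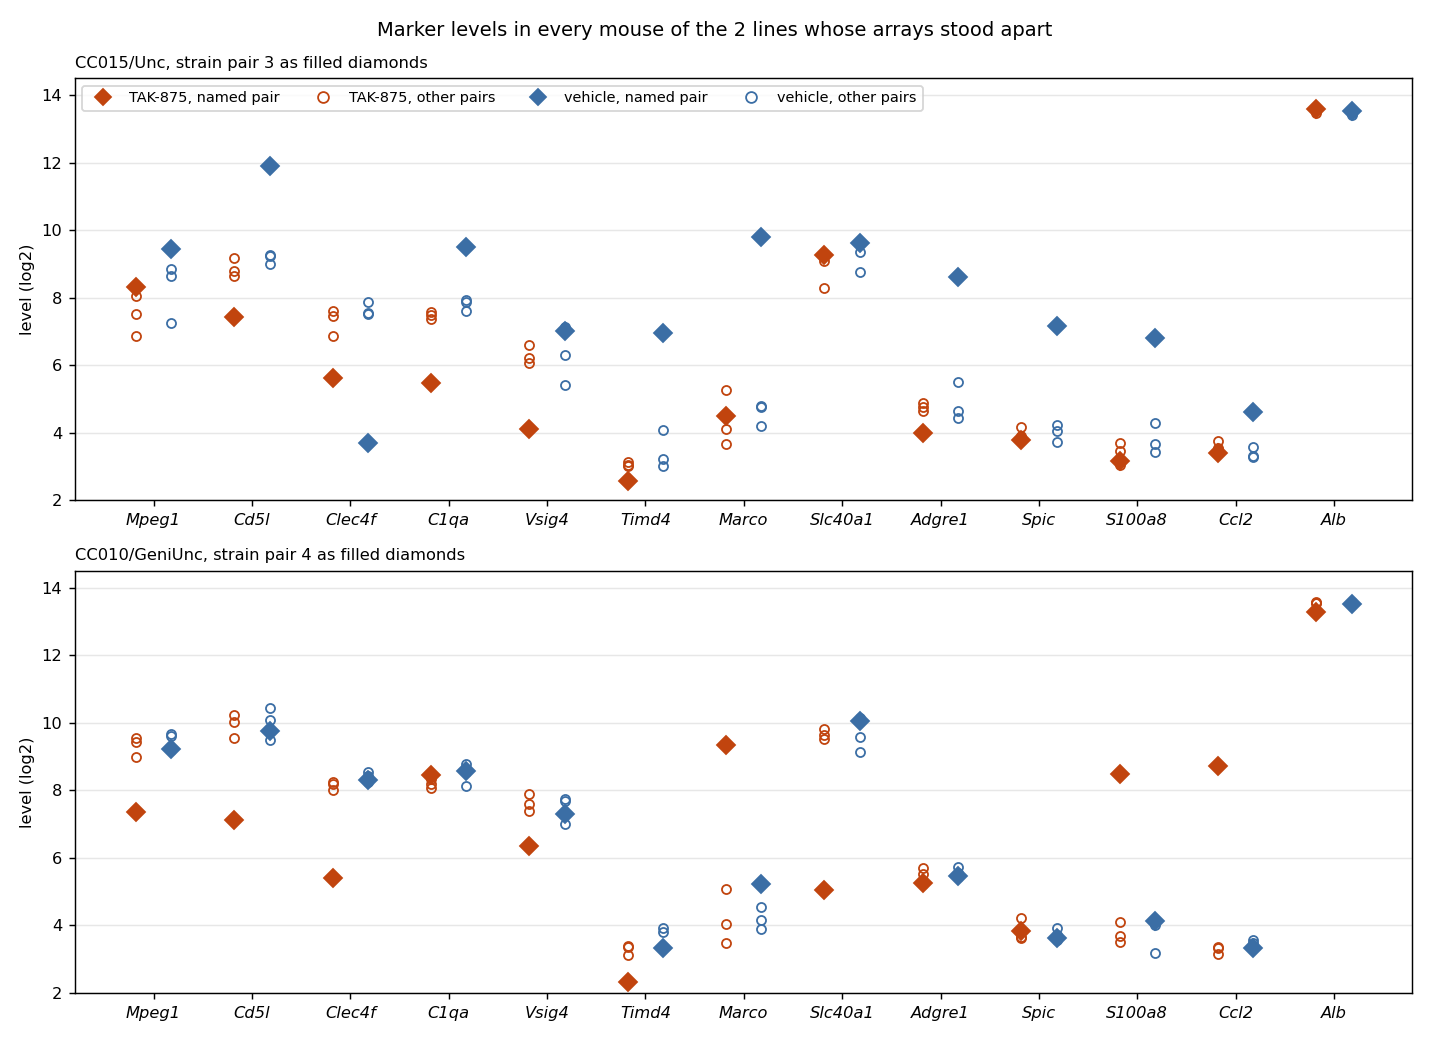
Log2 levels in every mouse of CC015/Unc and CC010/GeniUnc for the members and selected genes along the x axis, with TAK-875 and vehicle mice in separate colours and the pair that stood apart as filled diamonds. In CC015/Unc the vehicle diamond of Cd5l lies at 11.90 and that of Clec4f at 3.70, and in CC010/GeniUnc the TAK-875 diamond of Clec4f lies at 5.39.

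Strain pair 1 of CC028/GeniUnc was the only pair with all 4 members lower by at least 1. Its TAK-875 mouse had Mpeg1 at 6.57, Cd5l at 8.86, Clec4f at 6.97 and C1qa at 7.76, against 8.05, 10.65, 8.96 and 8.94 in its vehicle mouse. The vehicle mouse was above the other vehicle mice of the line for each member, and its Clec4f was the 3rd highest of 171. In this pair 14 of 25 pan-macrophage genes, Mpeg1 and C1qa among them, and 4 of 6 MHC class II genes were lower by at least 1. Of the 15 Kupffer cell identity genes 7 were lower, Cd5l and Clec4f among them, and 1 higher by as much. Among all 9093 genes 648 were lower and 381 higher. Its TAK-875 array, with a correlation of 0.947, was 1 of the 16 poorly correlated arrays. In strain pair 2 of CC065/Unc Mpeg1 was at 8.00 in the TAK-875 mouse and 10.17 in the vehicle mouse, the highest of all 171 vehicle mice. S100a9 was at 4.24 in that TAK-875 mouse and 8.12 in that vehicle mouse, and its part in the result was not tested. Of the 7 neutrophil genes 2 were lower by at least 1 in this pair and 0 higher by as much. Of the 15 Kupffer cell identity genes 5 were lower, Cd5l among them, and 0 higher by as much. Of the 25 pan-macrophage genes 8 were lower, Mpeg1 among them, and 0 higher by as much. Among all genes 272 were lower and 330 higher.

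Clec4f, Cd5l and C1qa varied together from mouse to mouse by rank, and by r once the 2 pairs that stood apart were left out. Mpeg1 followed them only loosely. Correlations over arrays or pairs are given as descriptions, since the points share arrays and lines. Over the 171 pair differences r was 0.82 for Cd5l with C1qa, 0.41 for Cd5l with Clec4f and 0.27 for Clec4f with C1qa. The rho values were 0.75, 0.66 and 0.66 in the same order. Over the 169 differences without the 2 pairs that stood apart, r was 0.80, 0.72 and 0.75. Those 2 pairs were left out after their values had been seen. Mpeg1 reached r of 0.31 with Cd5l, 0.25 with Clec4f and 0.19 with C1qa, and 0.28, 0.25 and 0.18 without the 2 pairs. Its rho over the 171 differences was 0.23, 0.17 and 0.09. In vehicle livers alone, Mpeg1 reached r of 0.20 with Cd5l, 0.03 with Clec4f and -0.01 with C1qa. There Cd5l reached 0.72 with C1qa, and Clec4f 0.35 with Cd5l and 0.46 with C1qa. With line means subtracted, r of Clec4f was -0.09 with Cd5l and 0.06 with C1qa, and 0.71 and 0.73 without the 2 pairs.

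Over line means Mpeg1 was again the member least correlated with the others. For the response over 44 lines, Cd5l correlated with C1qa at r = 0.87 and rho = 0.81, with Clec4f at r = 0.50 and rho = 0.68, and Clec4f with C1qa at r = 0.41 and rho = 0.66. The adjusted permutation p of r was 2e-05, 0.0011 and 0.0091, that of each rho was 1.6e-05, and r without the 2 farthest lines was 0.81, 0.77 and 0.38. Mpeg1 correlated with C1qa at r = 0.31 and rho = 0.33 (adjusted permutation p 0.056 and 0.041), with Cd5l at r = 0.30 and rho = 0.27 (0.063 and 0.089) and with Clec4f at r = 0.28 and rho = 0.29 (0.081 and 0.079). Without the 2 farthest lines its r was 0.26, 0.29 and 0.20. For vehicle levels the 3 other genes correlated with each other at r between 0.64 and 0.68 (adjusted permutation p = 2e-05 each). Mpeg1 was at r = 0.17, 0.08 and -0.05 with Cd5l, Clec4f and C1qa there (adjusted permutation p 0.31, 0.63 and 0.74).

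**Figure D4:**
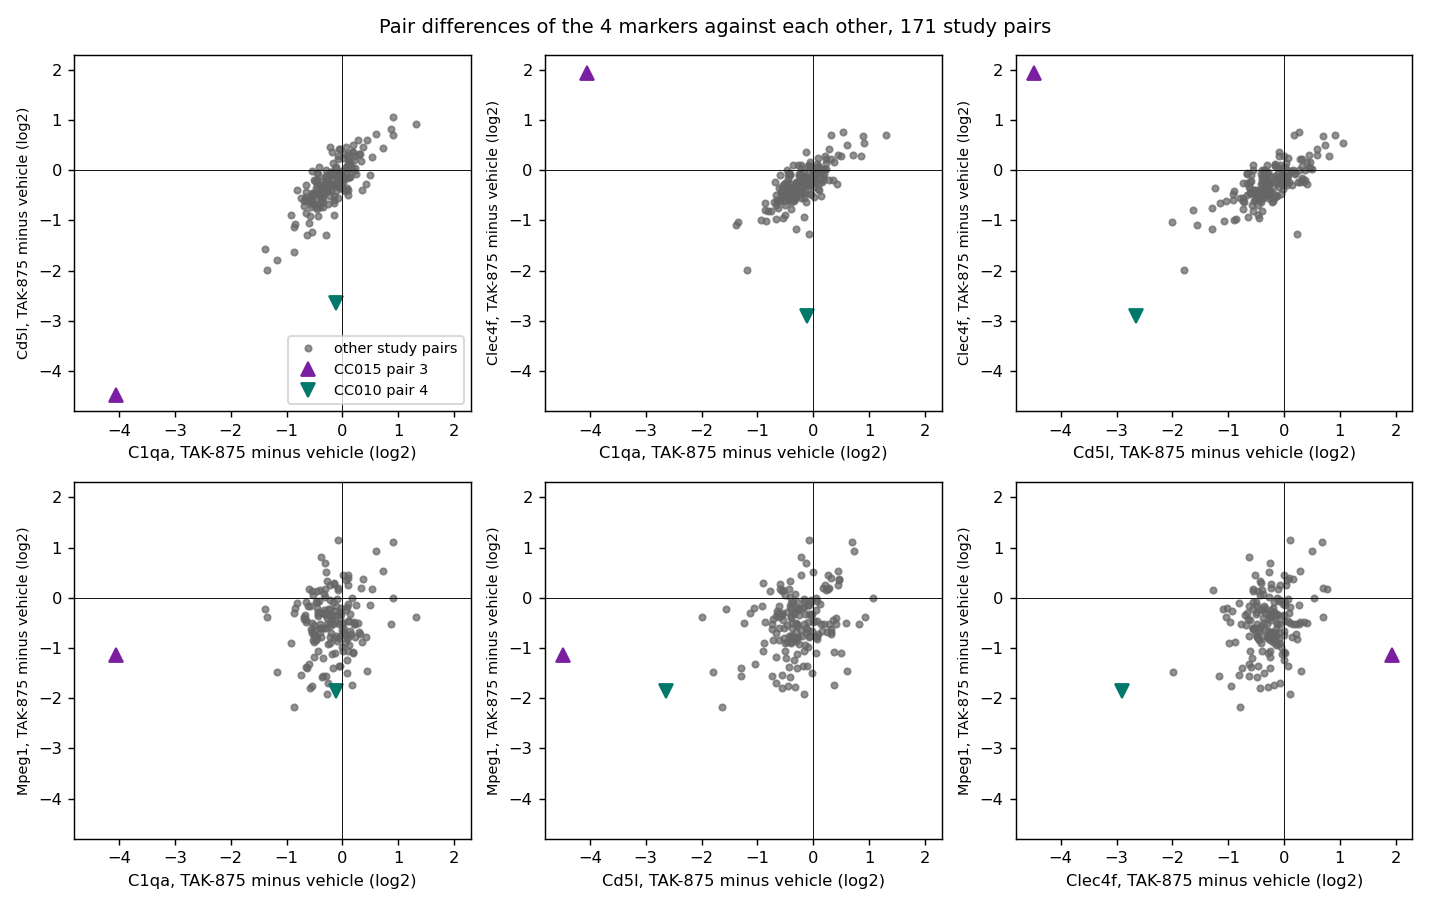
TAK-875 minus vehicle (log2) of 1 member against another for the 171 study pairs, with the named pairs as larger coloured symbols. Cd5l and C1qa lie along a common diagonal (r = 0.82), and Mpeg1 spreads widely against each of the others (r between 0.19 and 0.31).

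The label of a Kupffer cell marker was set against other macrophage genes, and the answer for Mpeg1 depended on the list and the measure. Over vehicle arrays the median r with 23 other pan-macrophage genes was 0.54 for C1qa, 0.46 for Cd5l, 0.10 for Clec4f and 0.09 for Mpeg1. Without the 2 pairs it was 0.53, 0.39, 0.37 and 0.05 in the same order. The median over all genes lay between -0.06 and 0.03 for the 4 members. With 13 other Kupffer cell identity genes, the median r over vehicle arrays was 0.30 for C1qa, 0.35 for Cd5l, 0.08 for Clec4f and 0.11 for Mpeg1, and 0.30, 0.27, 0.25 and 0.08 without the 2 pairs. Mpeg1 thus followed both lists loosely in vehicle livers. With 7 hepatocyte genes the median r over vehicle arrays was -0.15 for C1qa, -0.12 for Cd5l, -0.06 for Clec4f and 0.05 for Mpeg1. Without the 2 pairs it was -0.12, -0.12, -0.02 and 0.075. After line means were subtracted, Mpeg1 had 0.25 with hepatocyte, 0.21 with Kupffer cell identity and 0.09 with pan-macrophage genes, again without the 2 pairs. Mpeg1 had 0.12 with the hepatocyte genes over pair differences without the 2 pairs. Over pair differences the median r with the Kupffer cell identity genes was 0.32 for C1qa, 0.28 for Cd5l, 0.13 for Clec4f and 0.28 for Mpeg1. Without the 2 pairs it was 0.22, 0.12, 0.18 and 0.33, so Mpeg1 was not set apart from the other members by this list. With the 23 other pan-macrophage genes the median r over pair differences was 0.55, 0.47, 0.08 and 0.19 in the same order. Without the 2 pairs it was 0.42, 0.35, 0.41 and 0.19, so by that list Mpeg1 was the lowest of the 4. The 5 nearest genes of C1qa over vehicle arrays were Tyrobp (r = 0.84), C1qc (0.82), C1qb (0.82), Cfp (0.75) and Slc11a1 (0.73). Those of Cd5l were Tyrobp (0.83), C1qb (0.80), C1qc (0.80), C1qa (0.72) and Cfp (0.72). Tyrobp encodes a signalling adaptor of myeloid receptors, and C1qb and C1qc encode the other chains of C1q.

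Clec4f had Vsig4 (0.53), C1qa (0.46), Fabp7 (0.43), Prdx4 (0.39) and C8g (0.39) nearest over all vehicle arrays. Without the 2 pairs these were C1qa (0.77), Tyrobp (0.76), Cd5l (0.75), C1qb (0.72) and C1qc (0.71). Mpeg1 had Cp (0.51), Fgl1 (0.49), Fndc3b (0.48), Sdcbp (0.47) and Fgb (0.47) nearest, of which Cp, Fgl1 and Fgb encode the plasma proteins ceruloplasmin, fibrinogen-like protein and the fibrinogen beta chain. Over pair differences Mpeg1 was nearest to Vsig4 (0.62), a complement receptor gene of Kupffer cells, Cfi (0.61), Hc (0.59), Dbt (0.56) and Pros1 (0.56), where Cfi and Hc encode complement factor I and C5. Over pair differences C1qa was nearest to C1qc (0.94), C1qb (0.93), Tyrobp (0.91), Cfp (0.83) and Cd5l (0.82). Cd5l was nearest to C1qc (0.86), Tyrobp (0.83), C1qa (0.82), C1qb (0.79) and Sdc3 (0.78). Clec4f was nearest to Ly6e (0.63), Haao (0.55), Nat8f1 (0.55), Ces1f (0.53) and Faah (0.51), and without the 2 pairs to C1qc (0.77), C1qa (0.75), Cd5l (0.72), Fcna (0.70) and C1qb (0.69).

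Other Kupffer cell genes fell in part. Of 15 measured Kupffer cell identity genes, Cd5l and Clec4f included, 9 fell and 0 rose, with a median difference of -0.19, against 0.01 over all genes. Beyond the members 7 of 13 fell, among them Il18bp (-0.32, an inhibitor of interleukin 18), C6 (-0.27, a terminal complement component), Folr2 (-0.26, a folate receptor) and Vsig4 (-0.25). Slc40a1 (-0.19) and Timd4 (-0.18) also fell. The other 6 did not pass. Clec1b was at -0.10, Cd163 at -0.08, Spic at -0.04, Nr1h3 at 0.03, Marco at 0.04 and Id3 at 0.06. Of 25 pan-macrophage genes 13 fell and 0 rose (median -0.12). Besides Mpeg1 and C1qa, 11 of 23 fell, such as Cfp (-0.26, properdin), Ctss (-0.24, cathepsin S) and Adgre1 (-0.22), while Cd68 stood at 0.07 (limma adjusted p = 0.536).

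The partners of C1qa in complement fell as a group of 7 of 7 measured genes, C1qa included (median -0.21). C2 had -0.32 and was lower in 42 lines, C1qb had -0.21 in 38 lines and C1qc -0.21 in 34 lines, and C1s1, C1ra and Serping1 had -0.16, -0.13 and -0.09. Hepatocytes also make C2, C1s1, C1ra and Serping1. Of 9 macrophage transcription factors 0 fell and 0 rose by limma, and 0 had an unadjusted p below 0.05. A list of 9 is too short to set this apart from the 11.8% and 15.2% of all genes. Of 10 LXR targets 1 fell, the member Cd5l, and 1 rose, Lpcat3 (0.18), a phospholipid-remodelling enzyme, with a median of -0.0036. These shares do not exceed the 11.8% and 15.2% of all genes that fell and rose, and are no result about that list. Among 5 lectins of the Clec4 family Clec4f and Clec4g (-0.20) fell, and Clec4g also marks sinusoidal endothelium. Among 5 scavenger receptor cysteine-rich genes only the member Cd5l fell, and 0 of the other 4 did, which is no result about so short a list.

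Markers of other cells moved beside the members, and their part in the result was not tested. All 6 MHC class II genes fell (median -0.35), led by H2-Ab1 (-0.49), H2-Eb1 (-0.36), Cd74 (-0.36) and H2-Aa (-0.35), with the mean level of the list between 4.81 and 9.01 in TAK-875 livers and between 4.89 and 8.98 in vehicle livers. Of 15 sinusoidal endothelial genes 5 fell, among them the scavenger receptor gene Stab2 (-0.26) and Dnase1l3 (-0.24), and the list ran between 5.79 and 6.77 in TAK-875 livers and between 5.84 and 7.23 in vehicle livers. Of 10 stellate cell and fibroblast genes 3 fell, namely Col3a1 (-0.29), Colec11 (-0.15) and Bgn (-0.12). Of 3 red cell genes Alas2 (-0.19) and Hbb-b2 (-0.15) fell. Of 2 B cell genes Jchain fell (-0.14). Among 11 genes of monocytes and inflammatory macrophages 1 fell, Clec7a (-0.08), and among 6 growth factors and receptors of macrophages 1 fell, Csf1r (-0.12). These last 2 shares lie near the 11.8% of all genes that fell and are no result about those lists.

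Neutrophil genes gave 0 of 7 in either direction by limma, with 0 at an unadjusted p below 0.05. A list of 7 is too short to set this apart from the shares of all genes. The mean level of the neutrophil genes ran between 3.44 and 6.54 in TAK-875 livers and between 3.47 and 5.59 in vehicle livers. Of 7 hepatocyte genes Cps1 fell (-0.07) and Apoa1 rose (0.06), and Alb stood at 0.00. Both shares lie near those of all genes (11.8% fell, 15.2% rose) and are no result about that list. The T and NK cell genes gave 0 of 2 and the cholangiocyte genes 0 of 2 by limma, each with 0 at an unadjusted p below 0.05. Lists of 2 genes are too short to give a result. The 1 dendritic cell gene measured, Zbtb46, stood at 0.07 and did not pass after adjustment, although 1 of 1 had an unadjusted p below 0.05.

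**Figure D5:**
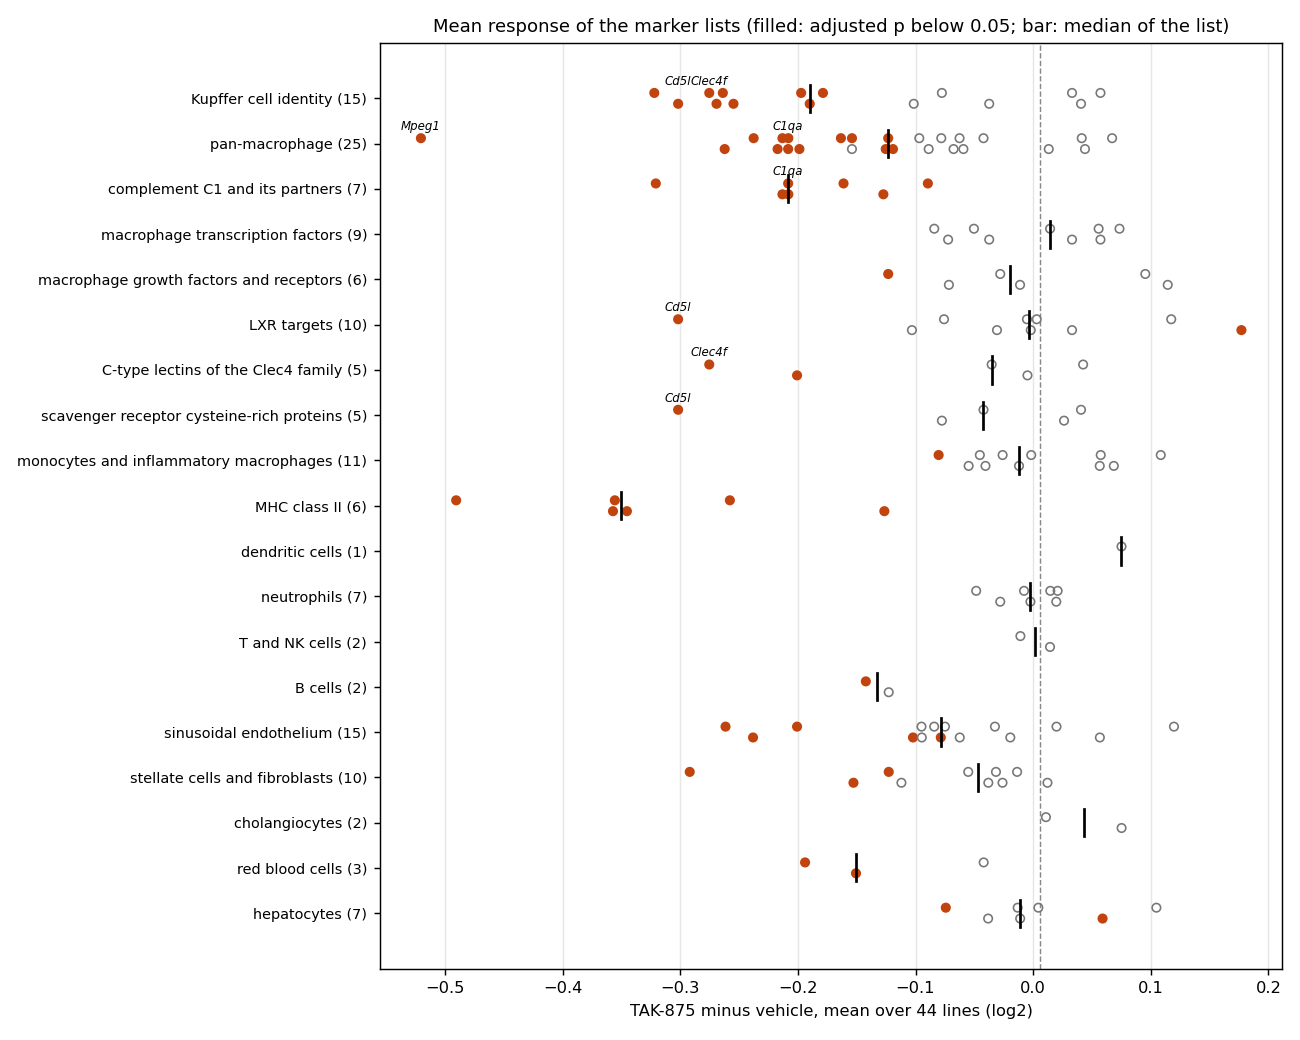
Mean difference over 44 lines, TAK-875 minus vehicle (log2, x axis), for each measured gene of the lists down the y axis, with filled points for an adjusted p below 0.05 and a bar at the median of the list. The medians lie lowest for MHC class II (-0.35), complement C1 and its partners (-0.21) and Kupffer cell identity (-0.19), and the dashed line marks the median of all genes.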

How the data were processed

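Livers of 171 TAK-875 and 171 vehicle mice were measured on 1 array each. Per the submitters' processing notes, the authors deposited log2 values made with Affymetrix Power Tools and RMA (the sources used here give no versions). The platform annotation gives 1 symbol for 13083 of 16397 probe sets, more than 1 for 261 and no symbol for 3053. Each of 9093 genes was represented by its brightest probe set on average. Everything after that was computed here, with Python 3.11.15, numpy 2.4.6, pandas 2.3.3, scipy 1.17.1, R 4.3.3 and limma 3.58.1.

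Vehicle was subtracted from TAK-875 within each study pair. The labels say that both mice of a pair were treated together, so the pairing comes from the labels. Deviations from the group means correlated at a mean of 0.0361 within pairs and -0.0117 between other pairs of a line, with 60 of 171 pairs over 0.1. Pair differences were averaged per line, and the 44 line means were tested against 0 with limma. Differences between lines used moderated F tests (127 residual degrees of freedom), and p-values were adjusted by Benjamini-Hochberg over all genes, with a threshold of 0.05. On simulated data for the mean over lines (9093 genes, 200 changed), 100% of changes of 0.5 and 95% of changes of 0.25 log2 were recovered, with 11 false calls. The number of arrays limits the precision.

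The members and lists were chosen with earlier results of these data known. Genes named were the 4 members, up to 4 called genes per list with the largest mean difference together with defining genes of other cell types, and the 5 nearest genes per member. For each member the 3 lowest and 2 highest lines in response, the 3 lowest and 3 highest in vehicle level and the 5 lowest pairs were named. Alternatives were the mean of all probe sets, other scalings, a filter on dim genes, other uses of the pairing, replicates and poorly correlated arrays left out, and medians of pairs. Leaving out 2 pairs was added after seeing the data.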

Additional observations from a re-analysis of the deposited data

Results flagged for a closer look

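In 15 of 156 groups of 4 pair differences, 1 pair lay far from the other 3 of its line by Dixon's criterion, and in 13 of them it was the low one. Chance sets apart about 1 in 20 such groups when they are independent. These groups are not, since the 4 genes were read from the same arrays, so no excess over chance is drawn from the count. CC010/GeniUnc had such a pair for Clec4f at -2.91 (others between -0.34 and -0.18), for Cd5l at -2.65 (others between -0.20 and 0.05) and for Mpeg1 at -1.86 (others between -0.24 and -0.08). CC015/Unc had one for Cd5l at -4.48 (others between -0.57 and -0.11) and for C1qa at -4.05 (others between -0.58 and -0.03). CC011/Unc had one for Cd5l at -2.00 (others between -0.73 and -0.49) and for C1qa at -1.34 (others between -0.40 and -0.34). CC028/GeniUnc had one for Clec4f at -1.99 (others between -0.62 and -0.52).

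Smaller departures were those of Mpeg1 in CC032/GeniUnc at -0.90 (others between 0.17 and 0.26), in CC022/GeniUnc at -0.47 (others between 0.33 and 0.45) and in CC021/Unc at -0.26 (others between -0.11 and -0.09). C1qa in CC033/GeniUnc was at -0.67 (others between -0.12 and -0.05) and Clec4f in CC039/Unc at -0.51 (others between -0.23 and -0.20). The high pairs were those of Cd5l in CC033/GeniUnc at 0.42 (others between -0.58 and -0.42) and of Clec4f in CC037/TauUnc at -0.087 (others between -0.46 and -0.41).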

How the results depend on the processing

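Of the 15 results compared under other settings, 3 were counts of genes. Counts have no direction or threshold, and each was tallied as kept at all 13 settings. The mean of all probe sets could not move the levels of the members, since each has 1 probe set. With these included, 172 of 175 values kept their direction and side of the threshold, 0 were lost and 0 reversed. The 3 exceptions concern the difference in Mpeg1 response between lines, which passed with the dimmest genes left out (F = 1.77, adjusted p = 0.0440, 6820 genes tested), without strain pair 4 of every line (F = 2.55, adjusted p = 0.0123) and without the 2 pairs that stood apart (F = 1.86, adjusted p = 0.0358). Leaving out each replicate in turn gave F between 1.19 and 2.55 (limma adjusted p between 0.0123 and 0.439), and the cause was not tested. Over all settings the mean difference lay between -0.55 and -0.47 for Mpeg1, -0.33 and -0.25 for Cd5l, -0.32 and -0.25 for Clec4f, and -0.23 and -0.18 for C1qa. Between 1907 and 3193 genes were called, against 2459. The lower share of the calls was 43.8%, against 56.1% with arrays centred on their medians and 54% after quantile normalization.

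With the replicate block and the study pair as the unit, the mean differences were -0.52 for Mpeg1, -0.30 for Cd5l, -0.28 for Clec4f and -0.21 for C1qa, and 3069 genes were called. Without the block 3193 were called, and the pairing changed no call of the members. The limits are 3 or 4 pairs per line, 1 probe set per member and no cell counts.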
